A study of Arabidopsis thaliana with 8 samples.

Results

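The comparison set Arabidopsis thaliana seedlings that carry mutations in 4 auxin receptor genes, labelled tir1 afb123, against the wild type, both grown in darkness. Each group had 2 libraries of polyadenylated RNA from seedlings of the Col-0 accession. The labels do not name the mutant alleles. After a cold treatment of 3 days and white light for 12 h, both groups were left in darkness for 4 days on half-strength MS medium with 1% sucrose, to a stated growth time of 4.5 days. Darkness and sucrose were thus common to the mutant and its wild type. The series also held 2 libraries each of the wild type and of a cry1 cry2 cryptochrome mutant in blue light (fluence rate 15 µmol per m2 per s), which served here to estimate the spread and for levels set side by side. The stated purpose of the series was to find genes that depend on cryptochrome signalling in blue light and on auxin signalling through TIR1 and the AFB proteins. The deposited files listed 27416 gene models, and the comparison covered the 19317 of them that had at least 1 RPKM (reads scaled to the length of the model and to the size of the library) in at least 2 of the 4 dark libraries. Of these, 523 reached 1 RPKM in both mutant libraries and in neither wild-type library, and 906 in both wild-type libraries and in neither mutant library, so their difference was partly set by the filter. The same holds for every gene named below whose 2 libraries of 1 group both lay under 1 RPKM.

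Auxin acts by joining its F-box receptors TIR1 and AFB1 to AFB5 to the Aux/IAA proteins, which are then marked for destruction. Aux/IAA proteins hold back the ARF transcription factors, so their loss lets ARFs act on early auxin-induced genes, among them the Aux/IAA, GH3 and SAUR families. Auxin drives hypocotyl elongation and the apical hook of dark-grown seedlings, and it patterns roots and vascular tissue. Seedlings that lack several of these receptors are known to grow poorly, and many form no normal root.

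Recovered read totals were 22.2 and 21.3 M in the mutant and 19.3 and 20.2 M in the wild type. The SD between replicates was 0.117 in the mutant and 0.110 in the wild type on the log2 scale. The 10 most abundant models took 9.26% and 9.85% of reads in the mutant and 4.78% and 4.76% in the wild type. Nothing in the labels tells whether replicate libraries stem from separately grown seedlings, so p-values cover only the spread between these libraries, which may be technical. Differences are log2 fold changes of RPKM + 1, mutant over wild type, and stand in parentheses with their standard error (SE). The words risen and fallen are kept for genes whose limma p-value, adjusted by Benjamini-Hochberg over the 19317 models, was under 0.05. Per-library values are given for replicate 1 and then replicate 2.

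The receptor genes themselves checked the labels. AFB2 (AT3G26810) and AFB1 (AT4G03190) were nearly absent from the mutant, AFB3 (AT1G12820) kept 50.2% of its wild-type reads, and TIR1 (AT3G62980) kept 77.1%. AFB2 had 0.996 and 0.586 RPKM in the mutant, against 50.4 and 51.5 RPKM in the wild type, and its reads came to 1.56% of those in the wild type (95% exact interval from 1.24% to 1.94%). The difference was -4.87, SE 0.10, with a limma adjusted p = 7.68e-12. AFB1 had 1.45 and 0.819 RPKM in the mutant, against 35.6 and 36.2 RPKM in the wild type, which was 3.17% of the wild-type level (2.58% to 3.87%, log2 fold change -4.13, SE 0.11). For both genes the mutant and wild-type libraries lay far apart.

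AFB3 had 16.7 and 18.0 RPKM in the mutant, against 32.6 and 36.3 RPKM in the wild type, or 50.2% of the wild-type level (47.3% to 53.3%, log2 fold change -0.95, SE 0.07). TIR1 had 59.96 and 58.8 RPKM in the mutant, against 75.8 and 78.1 RPKM in the wild type, or 77.1% (74.5% to 79.8%). Its log2 fold change was -0.37, SE 0.05, but the fall did not pass with median-ratio scaling (-0.07, limma adjusted p = 0.261). The genotype on the labels was thus visible in AFB1 and AFB2 transcripts, while TIR1 and AFB3 transcripts were still present. Intervals cover counting error only.

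The 2 receptors that the mutant should keep were AFB4 and AFB5. AFB5 rose slightly, with 31.7 and 32.9 RPKM in the mutant, against 27.0 and 28.5 RPKM in the wild type (0.21, SE 0.06). AFB4 had 7.52 and 6.48 RPKM in the mutant, against 8.05 and 8.82 RPKM in the wild type (-0.24, SE 0.09, limma adjusted p = 0.0271), and its direction turned with median-ratio scaling (0.032). The AFB4 call was lost with upper-quartile scaling, with the 4 dark libraries fitted alone, without WT_dark replicate 2 (-0.18) and without tir1afb123_dark replicate 2 (-0.15). Of the 3 nearest measured genes on each side of the 4 mutated genes, none was near 0 in the mutant while well expressed in the wild type. All of these neighbours of AFB1 rose, from 0.22 to 2.63, where 28.2% of all models rose. The largest of these rises was that of the cell wall gene XTH9, the third measured gene after AFB1. It had 113 and 110.0 RPKM in the mutant, against 16.2 and 18.2 RPKM in the wild type (2.63, SE 0.06). Beside AFB3, AT1G12805 (2.48, SE 0.22) and AT1G12800 (1.56, SE 0.07) rose as well. The neighbours of TIR1, AFB2 and AFB3 also included falls.

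**Figure D1:**
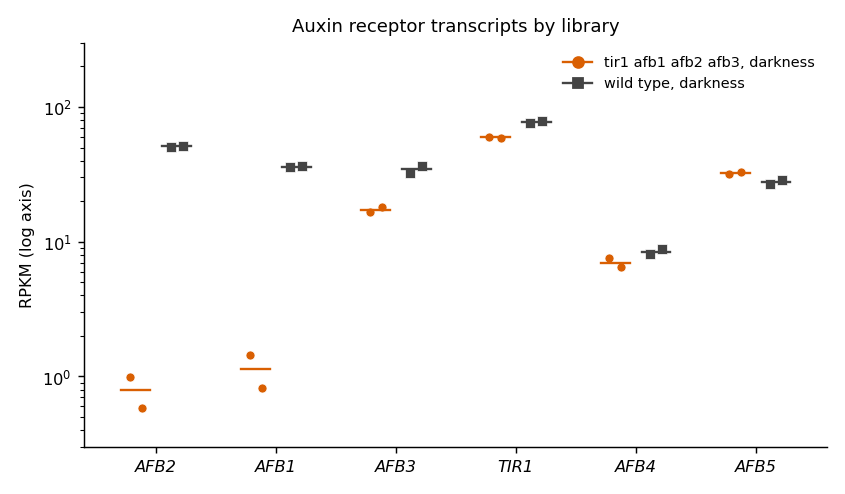
RPKM of the 6 auxin receptor genes on a log axis, with a point for each library and a bar at the group mean, for the mutant (circles) and the wild type (squares) in darkness. AFB2 and AFB1 lie at or under 1.45 RPKM in both mutant libraries, AFB3 and TIR1 keep 50.2% and 77.1% of the wild-type reads, and AFB4 and AFB5 lie close to the wild type.

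Most of the transcriptome differed between the dark-grown mutant and the wild type. Of 19317 models, 15572 (80.6%) passed, 5449 (28.2%) of them higher and 10123 (52.4%) lower in the mutant. By at least 2-fold, 2108 (10.9%) were higher and 3184 (16.5%) were lower, a balance that turned to 2929 higher and 2116 lower with median-ratio scaling and was 2526 and 2522 with upper-quartile scaling. On the scale of RPKM + 1, 50 rises and 6 falls reached a log2 fold change of 4 in size. Replicate values of the groups did not overlap for 17296 models (89.5%). With so many models past the threshold, a passing gene is no rarity here, and the counts below are read against these shares.

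The balance of higher and lower calls depended on scaling. The median log2 fold change of all tested models was -0.25 on the deposited RPKM, -0.11 after upper-quartile scaling and 0.01 after median-ratio scaling. Rises made up 35.0% of the calls on the deposited values, 43.4% with upper-quartile and 50.8% with median-ratio scaling. Of all models, 34.1% were higher and 44.4% lower with upper-quartile scaling, and 39.3% were higher and 38.0% lower with median-ratio scaling. Both scalings moved nearly all models up in the mutant, so they could end falls but hardly a rise. Under both, 7346 of the 10123 falls (72.6%) stayed falls and 50 became rises with median-ratio scaling. Of the 3184 falls of at least 2-fold, 3183 were still called lower under both scalings. Several of the lists below are also placed relative to the median of -0.25. Common reference genes did not agree on a scale. Of 15, 4 rose and 10 fell, or 5 and 5 with median-ratio scaling, between the actin gene ACT2 at -1.39, SE 0.06 and the ubiquitin gene UBQ5 at 0.91, SE 0.06. The ubiquitin gene UBQ10 had 969.6 and 978 RPKM in the mutant, against 1361 and 1423 RPKM in the wild type (-0.51, SE 0.06). The labels name whole seedlings, and root and shoot markers, such as the Casparian strip gene CASP1 and the antenna gene LHCB1.3, were well above 0 in all 4 libraries.

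**Figure D2:**
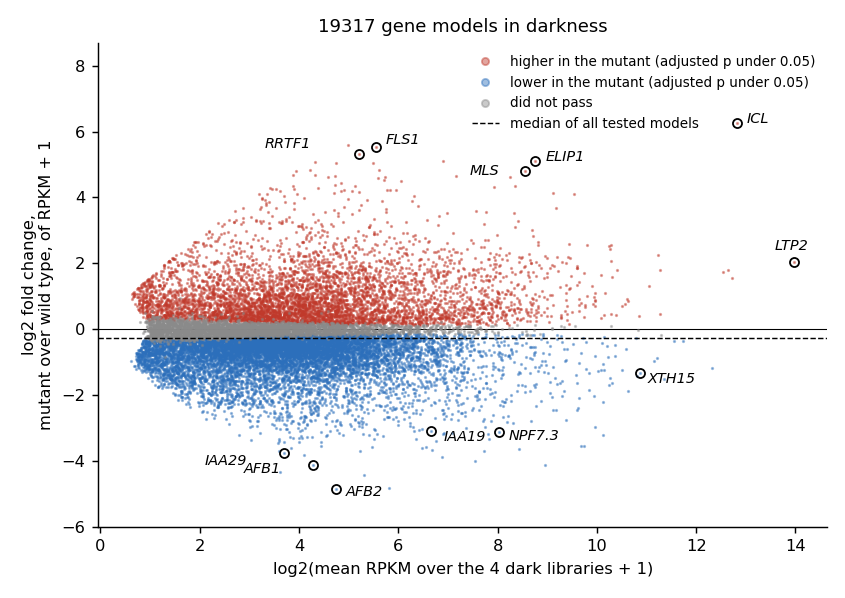
Log2 fold change of RPKM + 1, mutant over wild type, against log2 of the mean RPKM + 1 over the 4 dark libraries, with a point for each of the 19317 models coloured by the limma call. The dashed line marks the median of all tested models at -0.25, and the genes named on the plot include ICL at 6.26 and AFB2 at -4.87; with median-ratio scaling 50 of the falls were called rises.

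The 12 largest rises on the log2(RPKM + 1) scale brought together enzymes of stored-oil use, flavonoid synthesis, stress and seed storage. ICL (AT3G21720), the isocitrate lyase that turns stored fat into sugar precursors, had 13870.0 and 14712 RPKM in the mutant, against 181 and 190.5 RPKM in the wild type, the largest rise on this scale (6.26, SE 0.51). Its wide SE came with blue-lit wild-type libraries that differed from each other (26.6 ± 26.4 RPKM), which share the fit. MLS (AT5G03860), the malate synthase of the same glyoxylate cycle, had 747 and 694 RPKM in the mutant, against 24.1 and 25.8 RPKM in the wild type (4.80, SE 0.17). FLS1 (AT5G08640), a flavonol synthase, had 93.1 and 88.0 RPKM against 0.815 and 1.15 RPKM in the wild type (5.53, SE 0.09), and F3H, which acts just before it in flavonoid synthesis, reached 5.04. In each of these genes the lower mutant library exceeded the higher wild-type library many times over.

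The ERF-family stress regulators RRTF1 (AT4G34410) and ERF13 (AT2G44840) were among the 12 largest rises, at 5.32, SE 0.10 and 5.06, SE 0.14. Their wild-type levels were 0.785 and 0.821 RPKM for RRTF1 and 0.723 and 0.424 RPKM for ERF13. ELIP1 (AT3G22840), a light stress protein of the thylakoid, had 843 and 838 RPKM in the mutant, against 23.4 and 23.0 RPKM in the wild type (5.12, SE 0.06). CRA1 (AT5G44120), a cruciferin storage protein of seeds, had 33.2 and 37.1 RPKM in the mutant, against 0.219 and 0.298 RPKM in the wild type (4.84, SE 0.22). The wild-type level of CRA1 was close to 0, and its log2 fold change was 6.63 with a pseudocount of 0.1, where that of ICL was 6.27, so the order of the largest rises depends on the pseudocount. The other rises among the 12 were the carboxylesterase gene CXE13 and the models AT4G12870, AT1G80130 and AT5G62210, from 4.84 to 5.59. RRTF1, ERF13, CRA1, AT4G12870 and AT5G62210 lay under 1 RPKM in both wild-type libraries. They met the filter through the mutant alone, so their rise was partly set by it. Limma adjusted p-values of the 12 rises ran from 3.6e-13 to 3e-07.

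Besides AFB2 and AFB1, the 12 largest falls held the auxin response gene IAA29, MRD1, the arabinogalactan protein gene AGP22 and the glucosinolate gene CYP81F4. AT4G25580 had the largest fall on this scale of the genes that were not mutated, with 2.88 and 2.88 RPKM in the mutant, against 106 and 110.1 RPKM in the wild type (-4.81, SE 0.07). MRD1 had 0.160 and 0.167 RPKM in the mutant, against 22.8 and 22.0 RPKM in the wild type (-4.33, SE 0.08), so that it was nearly absent from the mutant. As a plain ratio of RPKM, MRD1 was 137 times higher in the wild type and AT4G25580 was 37.5 times higher there, so their order turns without the pseudocount. AGP22 had 21.0 and 21.0 RPKM in the mutant, against 371 and 331 RPKM in the wild type (-4.00, SE 0.08). AT4G11320, AT2G16005, AT2G22122, AT2G25150 and AT4G12510 made up the rest, from -4.42 to -3.70. Limma adjusted p-values of the 12 falls were at most 2.4e-10. AFB2, MRD1, IAA29 and AT2G25150 lay under 1 RPKM in both mutant libraries. They met the filter through the wild type alone, so their fall was partly set by it.

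The Aux/IAA genes, which encode the repressors that the receptors destroy and which auxin itself induces, were lower as a family. Of 26 measured genes, 25 fell and 1 rose, and 20 fell with median-ratio scaling. The list's median was -1.16, which lies 0.91 below the median of all tested models. IAA29 had 0.867 and 0.711 RPKM in the mutant, against 24.2 and 22.4 RPKM in the wild type (-3.76, SE 0.09). IAA19, a repressor in hypocotyl growth, had 21.4 and 19.0 RPKM in the mutant, against 183 and 177 RPKM in the wild type (-3.10, SE 0.10). In both genes the wild-type libraries lay many times above the mutant ones.

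IAA6 had 3.54 and 2.83 RPKM in the mutant, against 31.3 and 29.7 RPKM in the wild type (-2.92, SE 0.11). IAA3, whose gain-of-function form impairs root and hypocotyl growth, had 24.6 and 20.1 RPKM in the mutant, against 110.0 and 104 RPKM in the wild type (-2.22, SE 0.10). The 3 members most abundant in the wild type fell by smaller folds than these 4. IAA7 had 154 and 151 RPKM in the mutant, against 344 and 338 RPKM in the wild type (-1.15, SE 0.06), while IAA16 stood at -1.79 and IAA17 at -1.54. IAA11 alone rose, with 10.2 and 11.1 RPKM in the mutant, against 7.80 and 7.98 RPKM in the wild type (0.39, SE 0.12), and its call was lost without tir1afb123_dark replicate 2 (0.33, limma adjusted p = 0.0694). The summed RPKM of the family was 843 and 779 RPKM in the mutant and 2199.6 and 2129 RPKM in the wild type. In whole seedlings, fewer cells of a type and less RNA per cell cannot be told apart. Markers of the endodermis and stele of the root were lower too, at summed levels of 323 and 310.1 RPKM in the mutant against 1368 and 1348 RPKM in the wild type, and their part in the auxin lists was not tested.

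GH3 genes encode enzymes that join hormones to amino acids, which for several members removes active auxin. Of 8 measured members, 6 fell, 1 rose and 1 did not pass, with a median of -1.30 and the same counts under both scalings. GH3.5 had 13.6 and 13.1 RPKM in the mutant, against 59.9 and 61.2 RPKM in the wild type (-2.10, SE 0.06). GH3.17 had 12.7 and 12.4 RPKM in the mutant, against 50.8 and 53.3 RPKM in the wild type (-1.97, SE 0.08), and GH3.2 and GH3.1, which were low in all libraries, fell by 2.14 and 1.38 on the log2 scale. In these 4 genes no mutant library reached a wild-type one, and the groups did not overlap in 89.5% of all tested models either. GH3.6 (-1.23, SE 0.07) and GH3.3 (-0.88, SE 0.09) fell as well. GH3.9 did not pass (-0.12), with 2.32 and 2.54 RPKM against 2.43 and 3.05 RPKM in the wild type. The one rise was that of DFL2, also called GH3.10, which had 25.8 and 26.4 RPKM in the mutant, against 3.81 and 3.54 RPKM in the wild type (2.53, SE 0.08).

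SAUR genes, early auxin-induced genes of which many promote cell expansion, fell in their majority but not as a whole. Of 66 measured members, 51 fell, 13 rose and 2 did not pass, with 48 falls and 13 rises under median-ratio scaling. The median was -1.49, or 1.24 below that of all tested models. SAUR55 had 4.02 and 4.87 RPKM in the mutant, against 67.6 and 70.1 RPKM in the wild type (-3.69, SE 0.07). SAUR50, which light regulates oppositely in cotyledons and hypocotyl, had 7.12 and 8.81 RPKM in the mutant, against 63.7 and 63.5 RPKM in the wild type (-2.86, SE 0.08). These 2 genes had no overlap between the groups, as held for 89.5% of all tested models, and both stood well above 50 RPKM in the wild type.

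The tandem copies SAUR19 to SAUR24, known for hypocotyl growth, all fell, 6 of 6, from -2.82 to -1.17. Of SAUR61 to SAUR68, 7 were measured and 7 fell (6 with either scaling), from -2.80 to -0.34, and SAUR25 to SAUR29 fell, 5 of 5. Reads of such near-identical copies could have been split between them in the counting, so single members of these runs are uncertain. Against this, SAUR79 had 14.4 and 14.0 RPKM in the mutant, against 1.51 and 0.720 RPKM in the wild type (2.87, SE 0.15). SAUR6 had 58.5 and 59.1 RPKM in the mutant, against 16.9 and 14.97 RPKM in the wild type (1.82, SE 0.07). SAUR34 rose too, by 1.94 from a very low wild-type level. SAUR78, the most abundant member, had 73.9 and 80.6 RPKM against 93.0 and 86.3 RPKM in the wild type and fell by 0.21 on the log2 scale, a direction that turned with median-ratio scaling (0.091). The call was also lost without WT_dark replicate 1 (-0.16) or without tir1afb123_dark replicate 1 (-0.15).

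Genes of the ARF transcription factors fell in part. Of 15 measured models with ARF symbols, 10 fell (8 with either scaling), 3 rose and 2 did not pass. The median of -0.48 lay 0.23 below that of all tested models. These counts include AT2G24765, matched by the symbol ARF3, which encodes an ADP-ribosylation factor and not an auxin response factor. It fell (-0.31, SE 0.07), but did not pass with either scaling. ARF5, the activator that patterns embryo and veins, had 4.41 and 4.42 RPKM in the mutant, against 9.67 and 10.9 RPKM in the wild type (-1.06, SE 0.08). ARF19, an activator in lateral roots, stood at -0.81, SE 0.10, while ARF4, a repressor type, rose with 25.1 and 24.1 RPKM in the mutant, against 13.1 and 14.0 RPKM in the wild type (0.82, SE 0.07). The activator ARF8 rose by 0.40. ARF6, its close relative, stood at 0.22, SE 0.07, a call that was lost without WT_dark replicate 1 (0.14) or without tir1afb123_dark replicate 1 (0.17).

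Partners of the receptors were lower in the mutant but by smaller amounts. Of 17 models listed, among them those of the SCF complex, its activation and the co-repressors, 16 fell and 1 rose. The falls include the receptor-like kinase gene TMK1 (-1.08, SE 0.06), which belongs to none of these groups. Falls numbered 11 with median-ratio scaling, and the median was -0.55. TPL, the co-repressor that Aux/IAA proteins recruit, had 39.8 and 37.8 RPKM in the mutant, against 79.3 and 81.1 RPKM in the wild type (-1.03, SE 0.05). The cullin gene CUL1 had 61.7 and 54.8 RPKM in the mutant, against 106 and 105 RPKM in the wild type (-0.84, SE 0.06), and the adaptor ASK1 stood at -0.49, SE 0.05. The rise was that of AT1G04530, matched by the symbol TPR4, at 0.49, SE 0.05. That locus encodes a tetratricopeptide repeat protein and not the co-repressor of the same symbol, but it stands in the counts above.

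Genes of auxin synthesis and turnover split in both directions. Of 21 measured, 7 rose and 11 fell, or 8 and 6 with median-ratio scaling, and both the shares and the median of -0.24 were close to those of all tested models. TAR2, an aminotransferase of the first step, rose, with 7.99 and 8.46 RPKM in the mutant, against 2.45 and 2.74 RPKM in the wild type (1.36, SE 0.11). The YUC genes encode the flavin monooxygenases of the second step. Of 6 measured, 4 fell (3 with either scaling), 1 rose and 1 did not pass, where 52.4% of all models fell and 28.2% rose. YUC6 fell, with 0.684 and 0.622 RPKM in the mutant, against 4.25 and 4.40 RPKM in the wild type (-1.69, SE 0.11), as did YUC3 (-1.44, SE 0.14) and YUC8 (-0.54, SE 0.11), while YUC9 did not pass (-0.15, 1.07 and 1.04 RPKM against 1.39 and 1.17 RPKM in the wild type). The rise was that of YUC5 (0.42), named after its values were seen. CYP79B3, which makes indole-3-acetaldoxime, fell with 19.99 and 19.1 RPKM in the mutant, against 53.9 and 55.2 RPKM in the wild type (-1.44, SE 0.05). The nitrilases NIT1, NIT2 and NIT3 all rose, and NIT1 had 906 and 917 RPKM in the mutant, against 428 and 422 RPKM in the wild type (1.10, SE 0.06). They are close copies in sequence, so the share of each is uncertain.

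Auxin transport genes were mostly lower. Of 32 measured, 27 fell (84.4%) and 1 rose (3.1%), beside 52.4% and 28.2% of all models. With median-ratio scaling 21 fell and 5 rose, and the median on the deposited values was -0.75. WAG2, a kinase that phosphorylates PIN carriers, had 5.66 and 5.05 RPKM in the mutant, against 31.6 and 33.7 RPKM in the wild type (-2.40, SE 0.09). The uptake carrier AUX1 had 35.2 and 34.0 RPKM in the mutant, against 127 and 129 RPKM in the wild type (-1.86, SE 0.05). The root efflux carrier PIN2 had 2.75 and 2.68 RPKM in the mutant, against 14.7 and 14.7 RPKM in the wild type (-2.08, SE 0.09). PIN3, a carrier of hook and tropic growth, had 62.7 and 57.2 RPKM in the mutant, against 74.2 and 75.4 RPKM in the wild type (-0.32, SE 0.06), and that fall did not pass with median-ratio scaling. The clear rise was RPT2, a phototropism protein induced by light, with 191 and 178 RPKM in the mutant, against 39.5 and 37.6 RPKM in the wild type (2.23, SE 0.06), and the number of rises was 2 without tir1afb123_dark replicate 2.

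**Figure D3:**
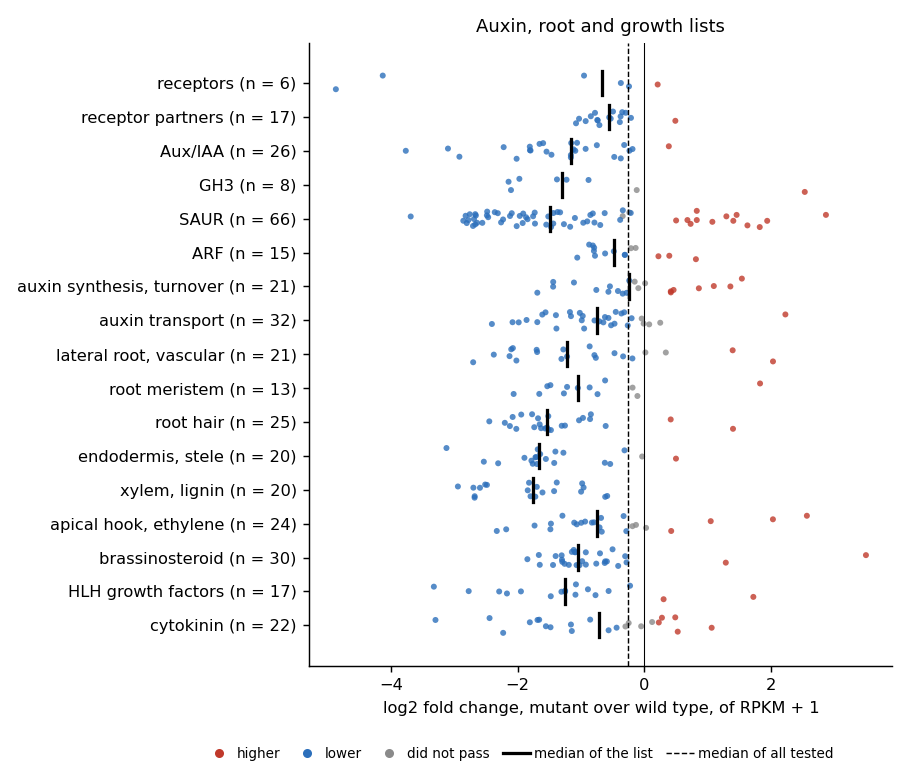
Log2 fold changes of RPKM + 1, mutant over wild type, for the measured members of 17 lists, with a point per gene coloured by the limma call, a bar at the list's median and a dashed line at the median of all tested models (-0.25). Aux/IAA, GH3, SAUR, root and xylem lists have medians between -1.76 and -1.05, while the auxin synthesis list lies near the median of all models, at -0.24 and, with median-ratio scaling, at 0.02.

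Root tissues were marked by lists of their own. Of 20 markers of endodermis and stele, 18 fell, 1 rose and 1 did not pass, with 17 falls under median-ratio scaling and a median of -1.66. NPF7.3, which loads nitrate into the xylem, had 51.9 and 53.3 RPKM in the mutant, against 475 and 456 RPKM in the wild type (-3.12, SE 0.06). CASP5, a scaffold protein of the Casparian strip, had 23.3 and 23.2 RPKM in the mutant, against 136 and 142 RPKM in the wild type (-2.53, SE 0.07). The strip genes CASP1 to CASP5 all fell, from -2.53 to -1.28, and so did their regulator MYB36 (-1.89, SE 0.09). None of the markers named here was at 0 in the mutant, where CASP1 still had 58.2 and 57.8 RPKM against 183 and 183 RPKM in the wild type.

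Root hair genes formed a similar group at lower levels. Of 25 measured, 23 fell and 2 rose under each scaling, with a median of -1.53, and 12 falls were left among genes with at least 5 RPKM in 2 dark libraries. RHD2, the NADPH oxidase of hair tip growth, had 0.995 and 1.20 RPKM in the mutant, against 7.05 and 8.69 RPKM in the wild type (-2.08, SE 0.11). The wall protein gene PRP3 had 6.23 and 6.87 RPKM in the mutant, against 29.4 and 38.6 RPKM in the wild type (-2.20, SE 0.11). The expansin gene EXPA7 had 1.31 and 1.77 RPKM in the mutant, against 7.07 and 5.65 RPKM in the wild type (-1.53, SE 0.12). The kinase gene OXI1, which also responds to stress, rose with 6.42 and 6.42 RPKM in the mutant, against 2.10 and 1.54 RPKM in the wild type (1.40, SE 0.12).

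Of 13 measured root meristem genes, 10 fell and 1 rose (2 with median-ratio scaling), while 11 more listed genes were under the filter on low values. SHR, which specifies the ground tissue, had 6.17 and 5.72 RPKM in the mutant, against 18.1 and 20.05 RPKM in the wild type (-1.53, SE 0.07). Its partner JKD had 13.1 and 11.9 RPKM in the mutant, against 35.0 and 38.4 RPKM in the wild type (-1.48, SE 0.07). SCR, the target of SHR, did not pass (17.5 and 17.8 RPKM against 18.2 and 20.04 RPKM in the wild type), and was called higher with median-ratio scaling (0.18). PLT5 rose, with 8.60 and 8.29 RPKM in the mutant, against 1.59 and 1.73 RPKM in the wild type (1.83, SE 0.10). UPB1, a regulator of the root's transition zone, fell (-2.06, SE 0.15).

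Genes of lateral root formation and vascular patterning, many of them direct auxin targets, were lower. Of 21 measured models, 17 fell and 2 rose, or 14 and 3 with median-ratio scaling, at a median of -1.22. The falls include AT1G69040, matched by the symbol ACR4 (-0.79, SE 0.06), which is an ACT-domain gene and not the root receptor kinase. MAKR4 had 0.278 and 0.330 RPKM in the mutant, against 7.38 and 7.56 RPKM in the wild type (-2.70, SE 0.10). TMO5, a target of ARF5 in the vascular initials, had 5.47 and 4.55 RPKM in the mutant, against 31.5 and 28.7 RPKM in the wild type (-2.37, SE 0.08). The procambium gene ATHB8 had 3.05 and 2.95 RPKM in the mutant, against 15.8 and 16.5 RPKM in the wild type (-2.10, SE 0.08). MYB77, which works with ARF7 and also responds to stress, rose with 23.1 and 22.0 RPKM in the mutant, against 4.74 and 4.78 RPKM in the wild type (2.03, SE 0.08).

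Xylem and lignin genes moved in 1 direction. All 20 measured members fell under each scaling, 15 of them by at least 2-fold, with a median of -1.76, or 1.504 below that of all tested models. ACL5, which keeps xylem cells from dying too early, had 8.01 and 7.14 RPKM in the mutant, against 66.3 and 63.3 RPKM in the wild type (-2.94, SE 0.06). The xylem protease XCP1 had 9.69 and 8.78 RPKM in the mutant, against 70.0 and 60.9 RPKM in the wild type (-2.70, SE 0.07). Its relative XCP2 had 14.1 and 14.2 RPKM in the mutant, against 99.6 and 92.4 RPKM in the wild type (-2.68, SE 0.06). In all 3 genes the wild-type libraries were at least 6 times the mutant ones. LAC11, a laccase of lignin formation, stood at -2.68, SE 0.09. Cellulose synthases of the secondary wall went with them, CESA4 at -2.23, SE 0.10, CESA7 at -2.04, SE 0.08 and CESA8 at -2.12, SE 0.09.

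The hook and ethylene list was lower in the mutant with marked exceptions. Of 24 measured, 17 fell (70.8%, or 15 genes with either scaling) and 4 rose (16.7%, or 5 genes), beside 52.4% and 28.2% of all models. The median was -0.75. HLS1, without which no hook forms, had 3.50 and 4.01 RPKM in the mutant, against 18.7 and 22.5 RPKM in the wild type (-2.18, SE 0.10). ACS5, an ethylene synthesis gene of dark-grown seedlings, had 3.22 and 2.30 RPKM in the mutant, against 16.8 and 18.7 RPKM in the wild type (-2.33, SE 0.13). EBF2, which destroys the ethylene regulator EIN3, had 44.9 and 41.6 RPKM in the mutant, against 141 and 151 RPKM in the wild type (-1.73, SE 0.06). EIN3 itself fell (-1.06, SE 0.05). In contrast the stress-induced synthesis gene ACS6 rose, with 63.3 and 54.4 RPKM in the mutant, against 9.01 and 9.11 RPKM in the wild type (2.57, SE 0.09), as did ACO1 (2.03, SE 0.09).

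Brassinosteroid genes were lower from synthesis to response. Of 30, 28 fell (93.3%, or 25 genes with median-ratio scaling) and 2 rose (6.7%), beside 52.4% and 28.2% of all models. The median was -1.04. DWF4, a rate-limiting hydroxylase of synthesis, had 7.73 and 7.41 RPKM in the mutant, against 30.5 and 29.1 RPKM in the wild type (-1.84, SE 0.06), and ROT3 stood at -1.66, SE 0.09. SOB7, which inactivates the hormone, fell too (-1.44, SE 0.08). UGT73C5, a glucosyltransferase that also acts on brassinosteroids and toxins, rose with 34.5 and 34.7 RPKM in the mutant, against 2.18 and 2.11 RPKM in the wild type (3.50, SE 0.09). The HLH growth regulators, small proteins that act for or against elongation, followed, with 15 falls (14 with either scaling) and 2 rises among 17. Both promoters and inhibitors of growth were among the falls. The promoter PRE1 had 3.21 and 4.001 RPKM in the mutant, against 21.1 and 21.8 RPKM in the wild type (-2.29, SE 0.09). The inhibitor IBH1 had 6.74 and 7.93 RPKM in the mutant, against 84.9 and 79.3 RPKM in the wild type (-3.32, SE 0.08). PAR1, an inhibitor in shade, had 8.11 and 7.69 RPKM in the mutant, against 60.8 and 58.7 RPKM in the wild type (-2.77, SE 0.07).

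Of 22 gibberellin genes, 12 fell (54.5%) and 5 rose (22.7%), or 9 and 8 with median-ratio scaling, shares close to the 52.4% and 28.2% of all models. The synthesis genes GA20OX1 (-1.51, SE 0.10) and GA3OX1 (-1.20, SE 0.09) fell, and 5 of the 6 measured GA2OX genes, which degrade gibberellin, rose, GA2OX6 with 48.0 and 45.9 RPKM in the mutant, against 19.5 and 20.2 RPKM in the wild type (1.20, SE 0.06). Of 8 measured GASA genes, a family of small peptides often induced by gibberellin, 4 fell and 3 rose (4 with either scaling). GASA6 had 18.8 and 16.6 RPKM in the mutant, against 205 and 188 RPKM in the wild type (-3.40, SE 0.12), GASA4 had 1575 and 1506 RPKM against 3226 and 2778 RPKM in the wild type (-0.96, SE 0.09), and GASA14 rose with 537 and 562 RPKM in the mutant, against 159 and 159 RPKM in the wild type (1.78, SE 0.06). GASA1 (-1.56, SE 0.11) and AT5G59845 (-1.51, SE 0.14) fell, and GASA3 (1.601, SE 0.15) and AT1G22690 (1.19, SE 0.12) rose from low levels. AT2G14900 did not pass (0.06) and was called higher with either scaling. Of 22 cytokinin genes, 13 fell (59.1%, or 12 genes with median-ratio scaling), again near the 52.4% of all models, among them CYP735A2, which makes trans-zeatin, with 2.32 and 1.22 RPKM in the mutant, against 26.6 and 24.6 RPKM in the wild type (-3.30, SE 0.17), and 6 of 8 measured type-A response regulators, ARR6 the most (-2.44, SE 0.08).

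Shade and elongation genes separated by family. The HD-ZIP II factors, which auxin and shade induce, fell, 6 of 6, from -2.87 to -1.30. ATHB2 had 8.33 and 8.13 RPKM in the mutant, against 64.6 and 68.1 RPKM in the wild type (-2.87, SE 0.06). HAT2, an auxin-induced member, had 12.1 and 11.2 RPKM in the mutant, against 62.3 and 65.1 RPKM in the wild type (-2.36, SE 0.06). Of 6 measured PIF genes, which encode the factors that sustain growth in darkness, 4 rose (5 with either scaling) and 1 fell. PIF5 had 39.0 and 35.6 RPKM in the mutant, against 13.5 and 13.6 RPKM in the wild type (1.40, SE 0.09). PIF4 had 23.7 and 21.9 RPKM in the mutant, against 15.3 and 16.7 RPKM in the wild type (0.49, SE 0.08). HFR1, an inhibitor of PIF factors, fell (-1.05, SE 0.06).

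Light signalling genes moved in both directions, 16 up and 13 down of 35, or 21 and 11 with median-ratio scaling. Their median of 0.15 lay 0.41 above that of all tested models. BBX25 had 38.4 and 38.5 RPKM in the mutant, against 1.01 and 1.05 RPKM in the wild type (4.28, SE 0.08). Its relative BBX24 had 241 and 231 RPKM in the mutant, against 90.3 and 91.0 RPKM in the wild type (1.37, SE 0.06). HY5, the factor that promotes greening, rose, with 71.6 and 67.9 RPKM in the mutant, against 48.2 and 43.2 RPKM in the wild type (0.60, SE 0.06). Of the photoreceptor genes, CRY3, a cryptochrome of organelles, had 35.0 and 35.3 RPKM in the mutant, against 2.78 and 2.76 RPKM in the wild type (3.26, SE 0.08), whereas PHYA, the phytochrome of darkness, fell (-0.65, SE 0.06). FHY1, which carries phyA into the nucleus, had 13.8 and 12.1 RPKM in the mutant, against 76.2 and 72.8 RPKM in the wild type (-2.44, SE 0.07).

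Of 22 clock genes, 9 rose and 9 fell (40.9% each), beside 28.2% and 52.4% of all models. With median-ratio scaling 12 rose and 5 fell. PRR9, a morning gene, had 23.7 and 22.4 RPKM in the mutant, against 1.28 and 1.66 RPKM in the wild type (3.29, SE 0.11). The morning gene CCA1 had 46.8 and 46.1 RPKM in the mutant, against 19.0 and 18.7 RPKM in the wild type (1.26, SE 0.07). The evening gene TOC1 fell (-0.83, SE 0.07), while ELF4, another evening gene, rose (1.36, SE 0.05).

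Genes of greening were higher although no light had been given since the first 12 h. All 43 measured photosystem and antenna genes of the nucleus rose, as did all 25 measured chlorophyll synthesis genes, under each scaling. Their medians were 1.93 and 1.70. LHCB2.2, an antenna protein of photosystem II, had 1029 and 1069 RPKM in the mutant, against 60.4 and 56.4 RPKM in the wild type (4.14, SE 0.08). LHCA1, of the photosystem I antenna, had 617 and 619 RPKM in the mutant, against 64.4 and 60.6 RPKM in the wild type (3.29, SE 0.08), and the most abundant member LHCB1.3 had 8769 and 9489.9 RPKM in the mutant, against 2800.4 and 2714 RPKM in the wild type (1.73, SE 0.11). Copies within LHCB1 and within LHCB2 are near-identical, so their single values are uncertain, but each of these 8 genes rose.

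PORB, which reduces protochlorophyllide in light, had 1859.6 and 1915 RPKM in the mutant, against 613 and 652 RPKM in the wild type (1.58, SE 0.06). PORA, the form that marks dark-grown seedlings, was also higher, with 2129.6 and 2065 RPKM in the mutant, against 587 and 631 RPKM in the wild type (1.78, SE 0.44), although its call was lost with a pseudocount of 0.1 (limma adjusted p = 0.0996). The blue-lit wild-type libraries, which share the fit, were low and uneven for PORA, at 1.88 ± 2.51 RPKM. GUN4, which helps to insert magnesium, had 307 and 300.2 RPKM in the mutant, against 46.7 and 45.3 RPKM in the wild type (2.70, SE 0.07). Of 22 Calvin cycle genes, 20 rose and 1 fell, with 21 rises under either scaling and a median of 1.41. The Rubisco small subunit RBCS1A had 9559.9 and 10532 RPKM in the mutant, against 3522 and 3244 RPKM in the wild type (1.57, SE 0.11), with the caveat that its family shares reads, and the Rubisco activase RCA had 882 and 861 RPKM in the mutant, against 226 and 226 RPKM in the wild type (1.94, SE 0.07). The fall was that of CP12-3 (-1.47, SE 0.08). Among models of the plastid genome, 79 of 88 rose and 4 fell at a median of 1.33, although these libraries were selected for polyadenylated RNA. Of 48 mitochondrial models, 8 rose and 6 fell.

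Set beside the blue-lit groups, the dark mutant stood near lit levels for some greening genes and apart from them for others. LHCA1 averaged 618 ± 1.84 RPKM in the dark mutant, 677 ± 44.6 in the blue-lit wild type, 601 ± 63.3 in blue-lit cry1 cry2 and 62.5 ± 2.71 in the dark wild type (SD, n = 2 each). RCA averaged 871 ± 14.9 RPKM in the dark mutant, 3310.1 ± 138 in the blue-lit wild type, 436 ± 34.9 in blue-lit cry1 cry2 and 226 ± 0.0229 in the dark wild type. LHCA1 in the dark mutant was thus close to both blue-lit groups, whereas RCA was well under the blue-lit wild type. LHCB2.2 averaged 1049 ± 28.1 RPKM in the dark mutant and 58.4 ± 2.87 in the dark wild type. In blue light it averaged 36.2 ± 0.688 RPKM in the wild type and 249 ± 33.6 in cry1 cry2. PORB averaged 1887 ± 39.3 RPKM in the dark mutant and 632 ± 27.5 in the dark wild type. In the same blue-lit groups PORB averaged 115.5 ± 4.77 and 237 ± 3.89 RPKM. ELIP1 averaged 840.2 ± 3.57 RPKM in the dark mutant, 7.49 ± 0.271 in the blue-lit wild type, 8.09 ± 0.283 in blue-lit cry1 cry2 and 23.2 ± 0.281 in the dark wild type, and was high in the dark mutant alone. Light and genotype both differ between these groups, and no test was run between them.

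Flavonoid genes rose with the greening genes. Of 18 measured, 16 rose and 2 fell (1 with median-ratio scaling), at a median of 2.52, or 2.78 above that of all tested models. CHS, which starts the pathway, had 461 and 466 RPKM in the mutant, against 23.1 and 21.8 RPKM in the wild type (4.31, SE 0.07). PAP1, a MYB factor that turns on anthocyanin synthesis, had 69.4 and 61.6 RPKM in the mutant, against 2.38 and 2.11 RPKM in the wild type (4.36, SE 0.13). The repressor MYBL2 went the other way, with 10.2 and 9.37 RPKM in the mutant, against 36.1 and 37.0 RPKM in the wild type (-1.81, SE 0.08). No library of the mutant overlapped the wild type in these 3 genes, as held for 89.5% of all tested models.

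Seed storage and oil-use genes were higher in the mutant. Of 29 measured members, 22 rose and 5 fell, or 24 and 3 with median-ratio scaling, at a median of 1.10. Their summed level was 17322 and 18025 RPKM in the mutant and 1628 and 1684 RPKM in the wild type, and ICL made up most of it in the mutant. PCK1, of gluconeogenesis from stored oil, had 1310.3 and 1255 RPKM in the mutant, against 696 and 727 RPKM in the wild type (0.85, SE 0.06). The 3 measured cruciferins and 5 albumins of the seed all rose from wild-type levels at or near 0. CRU3 had 29.1 and 28.2 RPKM in the mutant, against 0.0289 and 0.110 RPKM in the wild type. Members under 1 RPKM in both wild-type libraries, such as CRU3 and CRA1, met the filter through the mutant alone, so their rise was partly set by it. The oil body lipase gene SDP1 fell, with 19.3 and 17.8 RPKM in the mutant, against 30.7 and 30.2 RPKM in the wild type (-0.69, SE 0.07), as did the late embryogenesis gene EM6 (-0.78, SE 0.11).

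Wax and cuticle genes of the shoot surface were mostly higher, 20 up and 3 down of 25, or 21 and 1 with either scaling. LTP2, a lipid transfer protein, was the most abundant transcript of the mutant, with 24771 and 27077 RPKM in the mutant, against 6164 and 6423 RPKM in the wild type (2.04, SE 0.09). Its neighbour copy LTP1 had 734 and 742 RPKM in the mutant, against 95.5 and 87.4 RPKM in the wild type (3.0001, SE 0.09), and reads could be shared between them. LACS2, an acyl-CoA synthetase of cutin, had 55.1 and 44.3 RPKM in the mutant, against 9.19 and 9.54 RPKM in the wild type (2.28, SE 0.10).

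**Figure D4:**
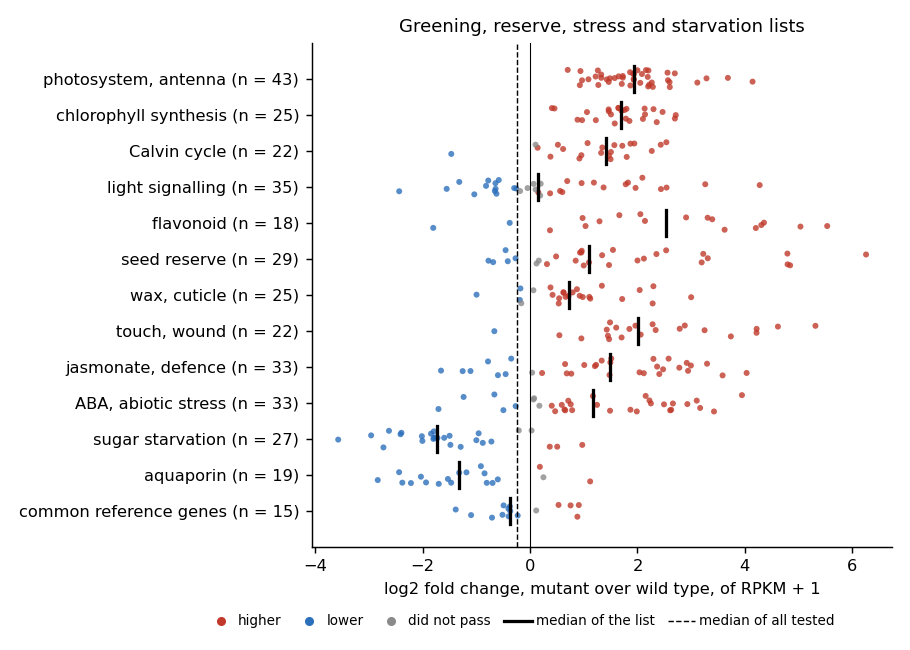
Log2 fold changes of RPKM + 1, mutant over wild type, for the measured members of 13 lists, drawn with a point per gene coloured by the limma call, a bar at the list's median and a dashed line at the median of all tested models (-0.25). Photosystem, chlorophyll and flavonoid medians lie between 1.70 and 2.52 and the sugar starvation median at -1.73, and none of these 4 medians turns with median-ratio scaling.

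Touch and wound genes, which respond within minutes to handling, were higher. Of 22, 21 rose and 1 fell under each scaling, at a median of 2.01. WRKY40, a defence regulator, had 106 and 96.1 RPKM in the mutant, against 2.95 and 3.39 RPKM in the wild type (4.62, SE 0.10). ZAT10, a stress-induced zinc finger gene, had 108 and 107 RPKM in the mutant, against 3.11 and 7.26 RPKM in the wild type (4.22, SE 0.24). The calmodulin-like touch gene TCH2 had 169.5 and 170.3 RPKM in the mutant, against 52.7 and 50.2 RPKM in the wild type (1.70, SE 0.08). TCH1, a calmodulin gene, fell (-0.67, SE 0.06).

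Jasmonate and defence genes rose beside them, 25 of 33, while 7 fell (6 with median-ratio scaling). All 10 measured genes of jasmonate synthesis rose, LOX3 with 24.5 and 22.6 RPKM in the mutant, against 0.596 and 0.401 RPKM in the wild type (4.03, SE 0.11). Of 11 measured JAZ repressor genes, which jasmonate induces, 8 rose and 3 fell (2 with median-ratio scaling), and JAZ1 had 164 and 157 RPKM in the mutant, against 21.7 and 23.3 RPKM in the wild type (2.78, SE 0.07). The storage-type proteins VSP1 (-1.26, SE 0.09) and VSP2 (-1.11, SE 0.12), also jasmonate-induced in shoots, fell at low levels.

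Genes of abscisic acid and abiotic stress were higher in their majority, with 25 rises and 5 falls of 33, or 28 and 4 with either scaling. RD20, a drought-induced caleosin, had 217 and 196 RPKM in the mutant, against 17.8 and 18.8 RPKM in the wild type (3.43, SE 0.10). The cold regulator CBF2 had 29.7 and 27.9 RPKM in the mutant, against 2.41 and 2.51 RPKM in the wild type (3.10, SE 0.10). RAB18, a dehydrin that abscisic acid strongly induces, fell instead, with 7.31 and 7.87 RPKM in the mutant, against 26.7 and 27.4 RPKM in the wild type (-1.71, SE 0.09), and so did ERD14 (-1.24, SE 0.07).

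Genes that darkness and sugar shortage induce were lower. Of 27, 22 fell and 3 rose under each scaling, and the median of -1.73 lay 1.47 below that of all tested models. DIN6, an asparagine synthetase, had 50.2 and 46.1 RPKM in the mutant, against 377 and 387 RPKM in the wild type (-2.96, SE 0.07). BCAT2, which breaks down branched-chain amino acids, had 14.4 and 12.7 RPKM in the mutant, against 172 and 173 RPKM in the wild type (-3.58, SE 0.08). The sugar-repressed galactosidase gene BGAL4 had 85.2 and 77.4 RPKM in the mutant, against 502 and 514 RPKM in the wild type (-2.63, SE 0.08). In these 3 genes every wild-type library exceeded both mutant libraries more than 5 times. DIN9 rose, with 12.4 and 11.6 RPKM in the mutant, against 5.03 and 6.27 RPKM in the wild type (0.97, SE 0.10).

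**Figure D5:**
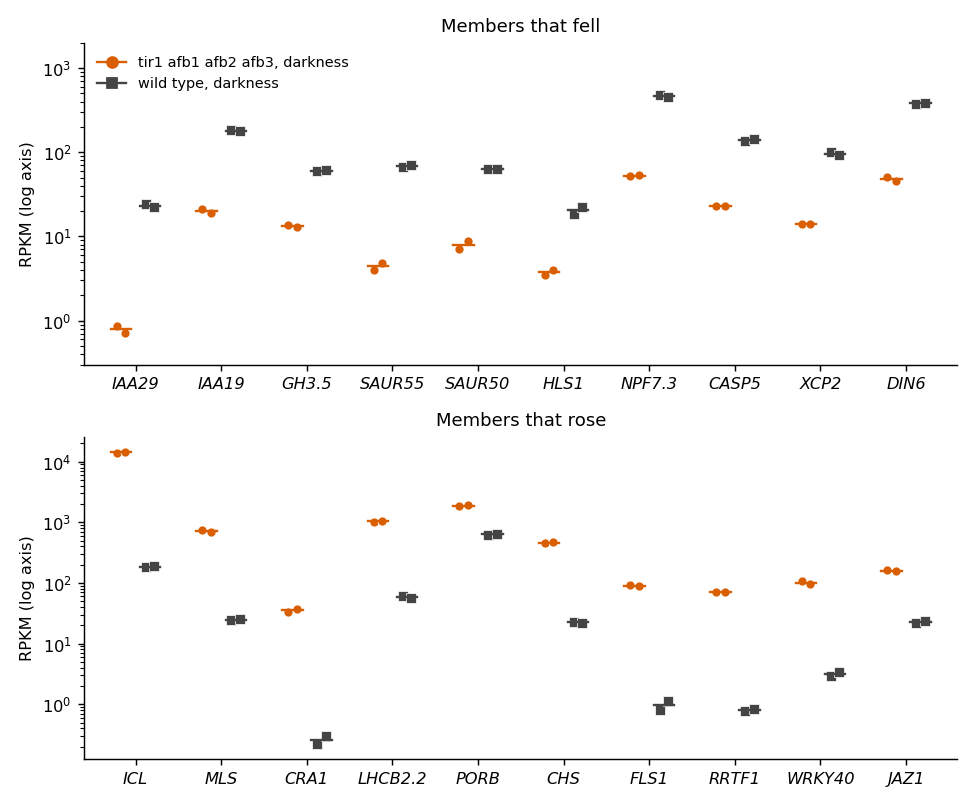
RPKM on log axes for 10 genes that fell (above) and 10 that rose (below), with a point per library and a bar at the group mean, for the mutant (circles, left of each pair) and the wild type (squares) in darkness. IAA19 lies at 19.0 to 21.4 RPKM in the mutant and 177 to 183 RPKM in the wild type. ICL lies at 13870.0 to 14712 and 181 to 190.5 RPKM. No pair of groups overlaps, as held for 89.5% of all tested models.

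Cell wall genes were divided within each family. Of 28 measured XTH genes, which encode enzymes that cut and rejoin xyloglucan, 19 fell (67.9%) and 6 rose (21.4%). Over all models 52.4% fell and 28.2% rose, and with either scaling 18 XTH genes fell and 7 rose. XTH30 had 26.4 and 26.7 RPKM in the mutant, against 240.2 and 243 RPKM in the wild type (-3.14, SE 0.06). The most abundant member XTH15 had 1028 and 1098 RPKM in the mutant, against 2592 and 2725 RPKM in the wild type (-1.32, SE 0.10). XTH32 rose instead, with 151 and 149 RPKM in the mutant, against 8.20 and 8.29 RPKM in the wild type (4.03, SE 0.05). Of 25 expansins, proteins that loosen walls, 15 fell and 8 rose (11 and 9 with median-ratio scaling), near the shares of all models, with EXPB1 among the falls (-1.59, SE 0.09) and EXPA10 among the rises (1.71, SE 0.12). Of 15 cellulose genes, 11 fell (73.3%) and 1 rose (6.7%), or 8 and 4 with median-ratio scaling. CESA5, a primary wall synthase also of seed mucilage, rose with 62.2 and 53.9 RPKM in the mutant, against 14.2 and 14.8 RPKM in the wild type (1.93, SE 0.07), while CESA1, of the primary wall, had 150.5 and 141 RPKM against 158 and 162 RPKM in the wild type, a fall of 0.13 that turned with either scaling and was called a rise with median-ratio scaling (0.17). The CESA1 call was also lost without WT_dark replicate 1 (-0.15), WT_dark replicate 2 (-0.11) or tir1afb123_dark replicate 2 (-0.088).

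Aquaporins, the water channels of expanding cells, were lower, 16 of 19 under each scaling, with 2 rises (3 with either scaling) and a median of -1.32. PIP2;4, a root plasma membrane channel, had 77.6 and 75.3 RPKM in the mutant, against 531 and 576 RPKM in the wild type (-2.84, SE 0.08). TIP1;2, of the vacuole, was the most abundant, with 3007 and 3268 RPKM in the mutant, against 7022 and 7248 RPKM in the wild type (-1.19, SE 0.09). The 19 measured aquaporins together summed to 9494 and 9952 RPKM in the mutant and 24418 and 24992 RPKM in the wild type. Tubulin genes fell by less, 12 of 15 (80.0%, beside 52.4% of all models), TUB8 the most (-1.96, SE 0.07). With median-ratio scaling 8 tubulin genes fell and 3 rose, where 38.0% of all models fell and 39.3% rose.

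Cell cycle genes as a list did not stand apart from all models. Of 47 measured, 24 fell (51.1%) and 14 rose (29.8%), beside 52.4% and 28.2% of all models, or 20 and 17 with median-ratio scaling. Of 8 measured B-type cyclins, which drive mitosis, 7 fell under each scaling, and the 8 ranged from -1.08 to -0.05. The mitotic kinase gene CDKB2;1 fell, with 9.88 and 9.42 RPKM in the mutant, against 21.6 and 20.5 RPKM in the wild type (-1.05, SE 0.06). The 4 measured MCM genes of DNA replication rose, from 0.37 to 0.63, MCM5 with 8.60 and 8.85 RPKM in the mutant, against 4.99 and 5.60 RPKM in the wild type (0.63, SE 0.09), and the D-type cyclin CYCD3;3 rose with 15.4 and 16.9 RPKM in the mutant, against 8.34 and 9.32 RPKM in the wild type (0.81, SE 0.09). SIM, an inhibitor that starts endoreduplication, had 60.8 and 62.7 RPKM in the mutant, against 178 and 166 RPKM in the wild type (-1.46, SE 0.06). No member rose by 2-fold, and 7 fell by as much.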

How the data were processed

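Polyadenylated RNA of whole seedlings was sequenced, and the authors deposited 1 table of RPKM per library for 27416 gene models, per the file headers. Per the submitters' processing notes, the aligner was Bowtie2 2.2.2 and the genome TAIR10. The annotation release, the counting rule and the treatment of strand and of multi-mapping reads are not given in the sources used here. The steps of low RPKM values gave whole reads, within 0.01, for 24193 of 24717 models above 0, and depth (19.3 to 23.1 M reads) comes from them. Symbols came from the RefSeq TAIR10.1 table, which matched 26719 models, and the other 697 keep locus names.

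Models with at least 1 RPKM in 2 of the 4 dark libraries were tested on log2(RPKM + 1) with limma 3.58.1 in R 4.3.3 (trended eBayes, 8 libraries in 4 groups, 4 residual degrees of freedom, prior 7.14), with Benjamini-Hochberg adjusted p under 0.05. The method was run on simulated data in which few models changed, in equal numbers up and down, so that run could not test the effect of scaling seen here. Named genes are the receptors, the 12 largest rises and falls without overlap that averaged at least 5 RPKM, up to 4 risen and 4 fallen and the 3 most abundant members of each list, all members of lists of 8 or fewer, and 10 genes fixed by name. A gene of these is not reported here. Members and lists were chosen with earlier results of these data known. Alternatives were other pseudocounts, filters and scalings, the dark libraries alone, a replicate block, limma's voom on recovered reads and each replicate left out. The number of columns with no sample was 0.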

Additional observations from a re-analysis of the deposited data

How the results depend on the processing

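On the deposited RPKM, 5449 models were higher and 10123 lower. With upper-quartile scaling 6578 were higher and 8582 lower, and with median-ratio scaling 7593 and 7346. By at least 2-fold, 2108 were higher and 3184 lower on the deposited values, 2526 and 2522 with upper-quartile scaling, and 2929 and 2116 with median-ratio scaling. The cause was not tested. A direction was counted as reversed only if the sign turned and the gene was called on the deposited RPKM or under the scaling. Named genes called in neither, such as GH3.9 and MYB10, can turn sign without being counted. Directions that reversed with upper-quartile scaling were CESA1 (0.037) and TUA4 (0.019). Those that reversed with median-ratio scaling were AFB4 (0.032), SAUR78 (0.091), SCR (0.18), CHE (0.20), EXPA11 (0.093), CTL1 (0.13), CESA1 (0.17), PBP1 (0.27), TUA4 (0.15), KCS9 (0.11), MYB30 (0.12), COR47 (0.037) and GLN1;2 (0.048). Of 388 named genes, these 13 reversed, among them SCR, CHE and PBP1, which had no call on the deposited RPKM. Under a scaling that kept their direction, 15 lost their call. With some replicate left out, 12 lost their call and none reversed. Leaving out each replicate gave 5093 to 5255 higher and 9466 to 9876 lower models, and 2085 to 2143 and 3109 to 3322 by at least 2-fold. With limma's voom on recovered reads, 5432 were higher and 10103 lower. A pseudocount of 0.1 gave 2472 and 3996 at 2-fold, since the pseudocount shrinks folds of low genes. Depth limits genes near 0 in a group: MRD1 rested on 6 reads over the mutant libraries and CRA1 on 17 over the wild-type ones. Requiring 5 RPKM tested fewer members, and list counts such as flavonoid rises (9), SAUR rises (7), root hair falls (12) and xylem falls (13) were lower by over 1.5 times.

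Same-numbered libraries did not deviate together (correlations of -0.12 to 0.15, -0.12 between the dark groups). A replicate block gave 5433 higher and 10095 lower models, and 2108 and 3184 by at least 2-fold. With the numbers crossed, a pairing chosen after the data were seen, these counts were 5490 and 10149, and 2108 and 3184. Within replicate numbers, AFB1 stood at 4.06% and 2.26% of the wild type and AFB2 at 1.98% and 1.14%.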

Other observations

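Nutrient genes of the dark-grown mutant moved in both directions. Of 23 measured phosphate and sulfate genes, 13 rose and 8 fell, or 15 and 6 with median-ratio scaling, at a median of 0.39 against -0.25 for all tested models. ATSDI1, known as a sulfur-shortage marker, had 94.9 and 88.8 RPKM in the mutant, against 2.82 and 2.87 RPKM in the wild type (4.59, SE 0.11). The glucosidase gene BGLU28, another such marker, had 29.8 and 24.5 RPKM in the mutant, against 0.398 and 0.532 RPKM in the wild type (4.26, SE 0.11). The APR enzymes reduce activated sulfate, and all 3 rose, APR2 with 199.97 and 197 RPKM in the mutant, against 20.9 and 21.4 RPKM in the wild type (3.17, SE 0.06). The root uptake carrier SULTR1;2, which is also known to be induced by sulfur shortage, fell instead, with 15.3 and 14.4 RPKM in the mutant, against 45.2 and 44.2 RPKM in the wild type (-1.52, SE 0.07), and the phosphate carrier PHT1;1 fell too (-1.47, SE 0.08). PHT1;1 and its neighbour PHT1;2 are near-identical, so the share of each is uncertain.

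Of 24 measured nitrogen genes, 16 fell (66.7%) and 7 rose (29.2%), beside 52.4% and 28.2% of all models. With median-ratio scaling 13 fell and 8 rose. The ammonium carrier AMT1;3 had 2.34 and 2.64 RPKM in the mutant, against 27.3 and 26.7 RPKM in the wild type (-3.005, SE 0.08). GLN2, the glutamine synthetase of plastids, rose, with 668 and 656 RPKM in the mutant, against 216 and 212 RPKM in the wild type (1.63, SE 0.06), as did the nitrate and nitrite reductases NIA2 (0.89, SE 0.07) and NIR1 (1.24, SE 0.06). Of 19 iron genes, 11 fell (57.9%, or 10 genes with either scaling) and 6 rose (31.6%), near the 52.4% and 28.2% of all models. ABCG37, which exports coumarins from roots, had 8.61 and 6.64 RPKM in the mutant, against 36.2 and 36.7 RPKM in the wild type (-2.13, SE 0.09), and FIT, the regulator of iron uptake, fell (-1.56, SE 0.11), while the phloem iron carrier OPT3 had 59.5 and 61.1 RPKM in the mutant, against 28.4 and 29.5 RPKM in the wild type (1.04, SE 0.06). Summed endodermis and stele markers were also lower, at 323 and 310.1 RPKM in the mutant and 1368 and 1348 RPKM in the wild type, and their part in the carrier genes was not tested.

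Glucosinolate genes did not move 1 way, with 5 rises (29.4%) and 6 falls (35.3%) among 17, beside 28.2% and 52.4% of all models. With median-ratio scaling 10 rose and 5 fell. Relatives of 1 subfamily went apart. CYP81F4, which modifies indole glucosinolates, had 1.44 and 1.12 RPKM in the mutant, against 30.7 and 31.1 RPKM in the wild type (-3.81, SE 0.08), whereas CYP81F2, which does so in defence, had 6.71 and 7.21 RPKM in the mutant, against 0.992 and 0.889 RPKM in the wild type (2.04, SE 0.12). Of 13 ER body genes, 8 fell and 4 rose, not far from the shares of all models (7 and 5 with median-ratio scaling). Here too related glucosidases differed, BGLU21 with 20.1 and 18.3 RPKM in the mutant, against 92.3 and 93.1 RPKM in the wild type (-2.22, SE 0.06) and the wound-linked BGLU18 with 13.5 and 11.7 RPKM in the mutant, against 0.757 and 0.671 RPKM in the wild type (2.99, SE 0.13).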
